A study of Mus musculus with 4 samples.

Results

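The mitochondrial ribosomal protein genes were taken as every gene row whose symbol is Mrpl or Mrps followed by a number and, in some, a letter, with a mean of at least 1 RPKM (reads per kilobase of gene, scaled to the mapped reads of the library) over the 4 libraries. The rule found 76 of the 23240 gene rows, 47 named Mrpl for the large subunit and 29 named Mrps for the small subunit, and all 76 passed the mean of 1 RPKM. The lowest mean was that of Mrpl1, at 4.91 RPKM, so no gene lay near the limit on either side. One name misleads: Mrps36 encodes a subunit of the ketoglutarate dehydrogenase complex, and Mrps18a and Mrps30 encode large-subunit proteins, so by role 26 genes belonged to the small subunit, 49 to the large subunit and 1 to neither.

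Mitochondria carry their own ribosome, which translates the few messages of the mitochondrial genome, all of them for inner-membrane subunits of the respiratory chain and ATP synthase. Its RNAs come from mitochondrial DNA, but every one of its proteins is encoded in the nucleus, made in the cytosol and imported. Some of these proteins descend from bacterial ribosomal proteins, and others were added in mitochondria and have no bacterial counterpart. In acute myeloid leukaemia, mitochondrial translation has been studied as a requirement of leukaemic cells and as a drug target.

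RNA was sequenced from mouse acute myeloid leukaemia cells that the labels describe as RUNX1 with FLT3-ITD, a duplication within the FLT3 receptor that keeps it active, sorted from bone marrow as GFP+BFP+CD11b-Gr1-. All cells had been kept for 22 h in SFEM medium with FLT3L, SCF, IL3 and IL11. The 4OHT libraries had received 200 nM 4OHT (4-hydroxytamoxifen, the active metabolite of tamoxifen, with which fusions to a mutant oestrogen receptor are turned on), and the EtOH libraries the solvent alone. Replicate 1 of each was labelled B6.Runx1-delta/delta and replicate 2 B6.Runx1-delta/+, so each combination of genotype and treatment was 1 library. The labels name neither the protein on which 4OHT acts, nor the promoter of a Cre or a transgene, nor the age of the mice. They also do not say whether the libraries of a genotype shared a mouse. In a fit of treatment and genotype to these 4 samples, the residual of a gene is how far its 4OHT response differed between the genotypes. The p-values of that fit measure changes against this residual, moderated by a prior from all genes, and not against a spread between replicates.

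Mapped reads numbered 34.6 M without and 36.7 M with 4OHT in delta/delta, and 33.7 M and 39.4 M in delta/+. Each gene of the set held between 153 and 8872 reads in a library, with a median of 1503.5. Runx1, the gene of the labelled alleles, stood at 568.4 and 380.5 RPKM without and with 4OHT in delta/delta and at 555.4 and 327.7 RPKM in delta/+. It fell with 4OHT by 0.67 on the log2 scale (SE 0.12, limma adjusted p = 0.0129), and since 1 value per gene does not separate alleles or a vector copy, it does not check the genotype labels. The 7 markers of myeloid progenitors and leukaemic blasts were uneven: Kit reached at most 1.608 RPKM, Cd34 at most 0.3948 RPKM and Mpo at most 0.5561 RPKM, while Myb had 16.96 to 99.22, Flt3 12.64 to 46.33, Il3ra 3.235 to 10.31 and Ptprc 0.9035 to 5.896 RPKM. Summed, they stood at 34.3 and 131 RPKM without and with 4OHT in delta/delta, and at 91.2 and 140 RPKM in delta/+. The Flt3 value does not separate a normal copy from FLT3-ITD. B cell markers summed to at most 0.287 RPKM in a library, and T and NK cell markers to 0.561 to 2.56 RPKM, most of it from Lck with 2.403 RPKM in EtOH of delta/delta; Ms4a1, Pax5 and Cd3e were at 0. Erythroid markers were abundant, with 16 of 16 detected and a summed level of 52600 RPKM without and 4230 RPKM with 4OHT in delta/delta, and 26400 and 2500 RPKM in delta/+. The globin genes alone held 12.3% and 0.92% of all RPKM in delta/delta and 7.66% and 0.664% in delta/+.

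The mitochondrial ribosomal protein genes were expressed well above the typical gene. Their median level was 36.4 RPKM against 13.0 RPKM for the 9595 genes that reached the same mean of 1 RPKM, and 68 of the 76 lay above that second value. They spanned a 28.2-fold range of mean RPKM, and 68 of them exceeded 10 RPKM in all 4 libraries. The highest was Mrpl12, which forms the stalk of the large subunit where translation factors dock, with a mean of 138 RPKM. It was followed by the large-subunit gene Mrpl20 at 131.7 RPKM, Mrpl30 at 129.4 RPKM, the small-subunit gene Mrps21 at 128.0 RPKM and Mrpl42 at 122.9 RPKM, and then by Mrps36 at 94.1 RPKM. Mrpl12 is placed first by 1 library: it had 117.8 and 254.5 RPKM without and with 4OHT in delta/delta and 72.37 and 109.2 RPKM in delta/+, which covers the means of the next 4 genes, so the order among the 5 highest does not exceed their spread. At the other end stood Mrpl1 at 4.91, Mrpl17 at 5.79, Mrpl19 at 7.38 and the small-subunit gene Mrps14 at 8.53 RPKM. By role, the median level was 37.7 RPKM for the 16 small-subunit proteins of bacterial type, 23.6 RPKM for the 10 mitochondria-specific ones, 38.2 RPKM for the 30 large-subunit proteins of bacterial type and 32.1 RPKM for the 19 mitochondria-specific ones. Most of these proteins occur once in each ribosome, Mrpl12 in several copies, while the RNA levels were far from equal in every library.

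**Figure D1:**
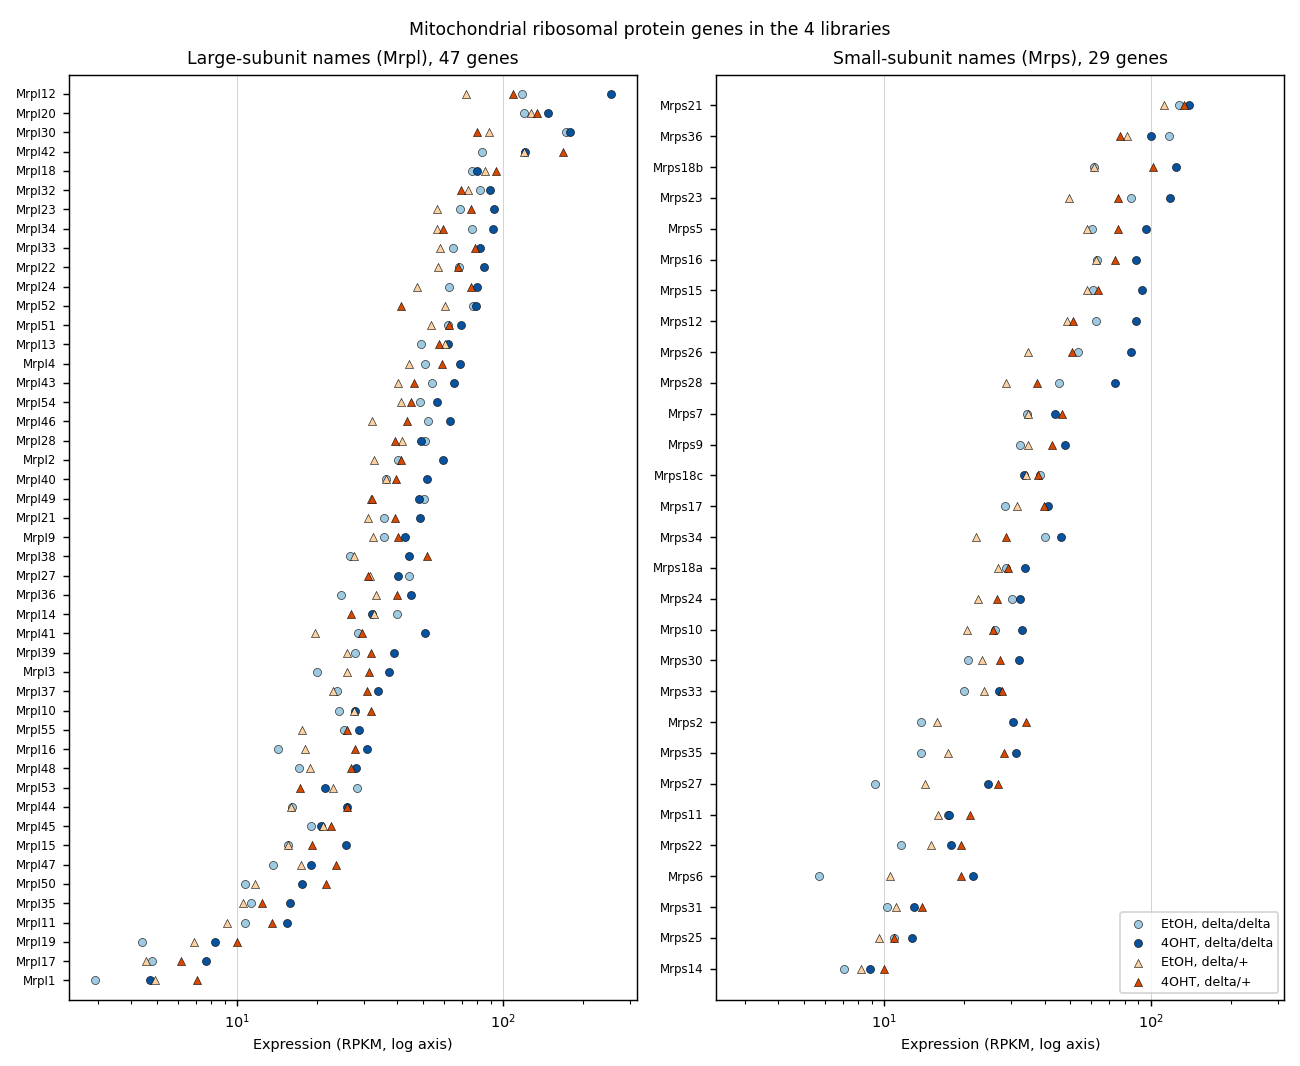
Expression of each of the 76 genes (vertical axis, ordered by mean) in RPKM on a log axis, with 1 point per library, circles for delta/delta and triangles for delta/+, pale for EtOH and dark for 4OHT. Dark points lie to the right of pale ones of the same shape for most genes, and Mrpl12 has its highest point, 254.5 RPKM, in 4OHT of delta/delta.

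Added together, the 76 genes summed to 3224 RPKM without and 4235 RPKM with 4OHT in delta/delta, and to 2807 and 3415 RPKM in delta/+. Both 4OHT libraries were above both EtOH libraries. As a share of all RPKM the set took 0.659% and 0.923% in delta/delta and 0.66% and 0.832% in delta/+, so the EtOH libraries of the genotypes were nearly equal on this scale. Mrpl12 alone made up 0.0241% and 0.0555% of all RPKM in delta/delta, and 0.017% and 0.0266% in delta/+.

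The question put to the first comparison was which of these genes differed between 4OHT and EtOH, with genotype as a term in the model. Of the 76 genes, 20 were higher in 4OHT (26.3%) and 0 were lower, with adjusted p under 0.05 by limma on log2(RPKM + 1), a scale that understates changes of low genes. Among all 9595 genes tested 22.2% were higher and 10.2% were lower, so the share called higher was near the background, while none was called lower. By an unadjusted p under 0.05, 41 genes of the set passed (45.7% of all genes tested, in either direction). The median log2 change of the set was 0.37 against 0.16 for all genes tested, with the middle of the set between 0.19 and 0.51. It was above 0 for 67 of 76, where 64.1% of all genes were above 0. Both 4OHT libraries exceeded both EtOH libraries for 48 genes (38.4% of all genes tested), and both lay below for 2 genes, Mrpl53 and Mrpl14 (16.9% of all genes tested). In bulk RNA, fewer cells of a type and less RNA per cell cannot be told apart.

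The scale of the libraries bears on these counts. The authors' RPKM left the median of all genes 0.16 above 0, and rescaling the libraries by median ratios moved it to -0.02. With that scaling 9 genes of the set were higher and 2 were lower, against 12.7% and 13.8% of all genes, and the median of the set was 0.17. The 9 higher genes were all among the 20. Without the genotype term 0 genes of the set were called in either direction (1.22% and 1.21% of all genes were higher and lower), 10 had an unadjusted p under 0.05 (25.3% of all genes) and the lowest limma adjusted p was 0.0584. Leaving out any 1 of the 4 libraries also drops that term and leaves a lone sample in 1 group. The calls then ended, in fits where few genes of the whole table were called. Medians of the set were then from 0.24 to 0.49. Markers of cell types moved with the treatment: 15 of the 16 erythroid markers and 4 of the 4 megakaryocyte markers tested fell, while 3 of the 4 progenitor and blast markers tested rose, with log2 changes of 1.82 for Myb, 1.24 for Il3ra and 0.73 for Ptprc. When all libraries were set to the same total without globin genes, 16 of the 20 remained called and 0 were lower, where 18.4% and 11.3% of all genes were called; the part of the other marker changes was not tested.

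**Figure D2:**
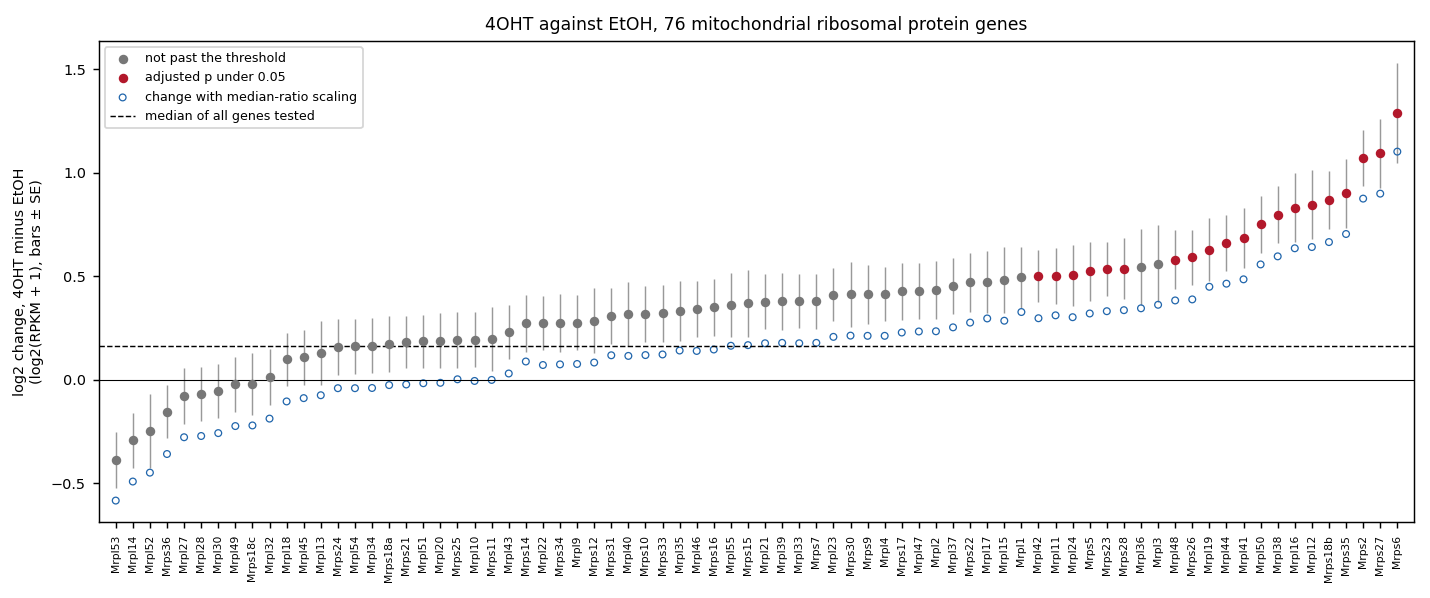
Log2 change of 4OHT against EtOH for each of the 76 genes, ordered by size, as filled points with bars of 1 SE on either side from the limma fit to 4 libraries (red where adjusted p was under 0.05), and as open circles after median-ratio scaling. The 20 red points all lie above 0, the dashed line marks the median of all genes at 0.16, and the open circles sit lower by nearly the same step for every gene.

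Among the small-subunit proteins of bacterial type, 4 of 16 rose and 0 fell (22.2% and 10.2% of all genes tested), with a median change of 0.36. Under median-ratio scaling 2 rose and 0 fell (12.7% and 13.8% of all genes). Mrps6, a homologue of the bacterial protein S6, changed most. It had 5.671 and 21.54 RPKM without and with 4OHT in delta/delta and 10.53 and 19.45 RPKM in delta/+. Its 4OHT values lay close together, while the delta/delta EtOH library was the lowest of the 4, and the groups did not overlap. Mrps6 rose by 1.29 on the log2 scale (SE 0.24, limma adjusted p = 0.0156). These levels came from 153, 617, 277 and 598 reads in the same order, and the ratio of 4OHT to EtOH was 3.8 in delta/delta (95% counting interval 3.18 to 4.56) and 1.85 in delta/+ (1.6 to 2.14). Of its annotated exon bases, 19.9% are shared with 2 genes of the same strand, Slc5a3, which had at most 0.01855 RPKM in any library, and Gm49711, which was not examined, so its value is uncertain to that extent. Mrps2, a homologue of bacterial S2, had 13.8 and 30.41 RPKM in delta/delta and 15.77 and 33.93 RPKM in delta/+. Both genotypes showed nearly the same rise, by 1.09 and 1.06 (combined 1.07, SE 0.13, limma adjusted p = 0.00644), and Mrps2 had the lowest adjusted p of the set. Mrps5 and Mrps28, homologues of bacterial S5 and S1, rose by 0.53 and 0.54 (limma adjusted p = 0.0428 and 0.043).

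In the mitochondria-specific group of the small subunit, 5 of 10 rose and 0 fell (22.2% and 10.2% of all genes tested), with a median change of 0.50. Under median-ratio scaling 3 rose and 0 fell (12.7% and 13.8% of all genes). Mrps27, a pentatricopeptide-repeat protein of the kind that binds RNA, had 9.246 and 24.49 RPKM without and with 4OHT in delta/delta and 14.19 and 26.83 RPKM in delta/+. The groups were well apart, and Mrps27 rose by 1.09 (SE 0.17, limma adjusted p = 0.00934). A transcript on the other strand shares 24.2% of the exon bases of Mrps27. Mrps35 had 13.74 and 31.21 RPKM in delta/delta and 17.35 and 28.28 RPKM in delta/+, also without overlap. It rose by 0.90 (SE 0.17, limma adjusted p = 0.0151). Mrps18b, 1 of a family of proteins related to bacterial S18, had 61.15 and 124.8 RPKM in delta/delta and 61.44 and 102.0 RPKM in delta/+. Its EtOH values were almost the same in the genotypes and both 4OHT values were far above them (log2 change 0.87, SE 0.14, limma adjusted p = 0.0112). An antisense gene shares 30.5% of the exon bases of Mrps18b. Mrps26 rose by 0.59 and Mrps23 by 0.54 (limma adjusted p = 0.0252 and 0.0313).

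Promoter sequence is given for the 4 genes with the largest 4OHT change among those named that had a RefSeq window with a searched motif. Each runs from 250 bases before the RefSeq start to 30 bases after it, 5′ to 3′ on the strand of the gene, in build GRCm38.p6. Capitals mark matches, on either strand, to CCGGAAG (ETS family, the type bound by GABP), GCGCATGC (NRF1), AAGATGGC (YY1), CACGTG (E-box), TGTGGT (RUNX), GGGCGG (GC box) or CCAAT. They are Mrps6 at chr16:92058086-92058365 (plus strand), Mrps27 at chr13:99344536-99344815 (plus strand), Mrps18b at chr17:35916411-35916690 (minus strand) and Mrpl50 at chr4:49521054-49521333 (minus strand).
Mrps6: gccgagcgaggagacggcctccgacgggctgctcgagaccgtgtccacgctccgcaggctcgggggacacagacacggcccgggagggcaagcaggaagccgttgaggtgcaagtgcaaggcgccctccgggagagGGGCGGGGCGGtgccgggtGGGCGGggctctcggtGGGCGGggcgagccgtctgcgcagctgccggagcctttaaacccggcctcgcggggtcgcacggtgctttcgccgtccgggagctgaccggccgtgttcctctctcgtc
Mrps27: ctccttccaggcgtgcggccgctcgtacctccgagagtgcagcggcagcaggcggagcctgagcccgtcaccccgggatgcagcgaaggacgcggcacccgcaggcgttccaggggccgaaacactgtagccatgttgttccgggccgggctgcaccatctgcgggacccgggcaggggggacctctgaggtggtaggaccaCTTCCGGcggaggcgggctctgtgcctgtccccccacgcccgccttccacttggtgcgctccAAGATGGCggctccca
Mrps18b: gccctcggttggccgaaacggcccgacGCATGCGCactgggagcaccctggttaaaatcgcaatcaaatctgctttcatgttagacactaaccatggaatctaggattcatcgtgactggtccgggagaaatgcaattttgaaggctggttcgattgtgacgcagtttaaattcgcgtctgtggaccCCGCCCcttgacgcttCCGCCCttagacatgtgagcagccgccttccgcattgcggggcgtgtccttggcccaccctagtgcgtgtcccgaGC
Mrpl50: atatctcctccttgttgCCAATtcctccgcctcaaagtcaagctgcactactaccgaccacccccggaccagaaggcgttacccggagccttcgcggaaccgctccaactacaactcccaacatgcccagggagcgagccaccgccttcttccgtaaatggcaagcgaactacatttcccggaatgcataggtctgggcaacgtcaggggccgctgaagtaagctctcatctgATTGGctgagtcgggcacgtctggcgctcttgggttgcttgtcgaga
Mrps6 held only GC boxes, some of them overlapping each other. Mrps27 held the ETS letters on the minus strand and, past the start, the YY1 letters. Mrps18b held an NRF1 match and GC boxes, and its last 2 capitals open a further NRF1 match that runs past the printed end. Mrpl50 held CCAAT on each strand. Mrps2, Mrpl12 and Mrpl16 changed more than Mrpl50 but are not printed, since their windows held none of the searched motifs. Mrps35 and Mrpl38 also changed more than Mrpl50, but had no RefSeq window and were not searched. A match is a description of letters and not a bound site.

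RefSeq gave a promoter window of 300 bases for 67 of the 76 genes and for 7813 of the genes tested. The ETS letters were in 34.3% of the windows of the set and in 21.7% of all windows, the NRF1 letters in 11.9% and 6.22%, and the YY1 letters in 17.9% and 5.62%. These are motifs of factors long linked to nuclear genes of mitochondria. RUNX letters were in 11.9% of the windows of the set and 12.2% of all windows. GC boxes were in 49.3% and 67.5%, the E-box in 7.46% and 11.1%, and CCAAT in 40.3% and 40.2%. Among the 16 genes called higher in 4OHT that had a window, 4 held the ETS letters, 2 the YY1 letters (12.5%), 1 the NRF1 letters, 1 the RUNX letters and 0 the E-box. The median 4OHT change was 0.29 for genes with the ETS letters and 0.38 for those without.

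For the large-subunit proteins of bacterial type, 5 of 30 rose and 0 fell, with a median change of 0.38. The share that rose was below the 22.2% of all genes tested, of which 10.2% fell. Under median-ratio scaling 2 rose and 1 fell (12.7% and 13.8% of all genes). Mrpl12 had the values given above, and the EtOH library of delta/delta exceeded the 4OHT library of delta/+, so its groups overlapped; within each genotype 4OHT was higher. It rose by 0.85 (SE 0.17, limma adjusted p = 0.0175), with ratios of 2.16 in delta/delta (95% counting interval 2.08 to 2.24) and 1.51 in delta/+ (1.43 to 1.59). Mrpl16, whose bacterial relative L16 sits at the tRNA sites of the large subunit, had 14.2 and 30.89 RPKM in delta/delta and 18 and 27.72 RPKM in delta/+. It rose by 0.83 without overlap (SE 0.17, limma adjusted p = 0.0189). Mrpl19, Mrpl24 and Mrpl11 rose by 0.63, 0.51 and 0.50, and Mrpl24 lay at the very edge of the threshold. Genes on the other strand share 36.0% of the exon bases of Mrpl19 and 26.3% of those of Mrpl24. Their values are uncertain to that extent, as strand use in counting was not given.

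Of the mitochondria-specific large-subunit genes, 6 of 19 rose and 0 fell (22.2% and 10.2% of all genes tested), with a median change of 0.34. Under median-ratio scaling 2 rose and 1 fell (12.7% and 13.8% of all genes). Mrpl38 had 26.56 and 44.11 RPKM in delta/delta and 27.52 and 51.65 RPKM in delta/+, and it rose by 0.80 (SE 0.14, limma adjusted p = 0.0129). Mrpl50 had 10.7 and 17.53 RPKM in delta/delta and 11.65 and 21.62 RPKM in delta/+. It rose by 0.75 (SE 0.14, limma adjusted p = 0.0154), and for both genes the EtOH libraries were close together and below both 4OHT libraries. Mrpl41 had 28.45 and 50.86 RPKM in delta/delta and 19.69 and 29.39 RPKM in delta/+, and rose by 0.69 (SE 0.14, limma adjusted p = 0.0211). The 4OHT library of delta/+ was only slightly above the EtOH library of delta/delta. Mrpl44, a protein with a fold of the RNase III family, Mrpl48 and Mrpl42 rose by 0.66, 0.58 and 0.50. Mrpl44 was the most even of them, with 16.04 and 16.02 RPKM in the EtOH libraries and 25.93 and 25.95 RPKM in the 4OHT libraries.

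Lower values in 4OHT were found for 9 of the 76 genes, and none passed the test. Mrpl53, a mitochondria-specific large-subunit protein, had 28.31 and 21.47 RPKM without and with 4OHT in delta/delta and 22.92 and 17.27 RPKM in delta/+, with no overlap between treatments (log2 change -0.39, SE 0.13, limma adjusted p = 0.0789). Mrpl14, whose bacterial relative L14 bridges the subunits, had 39.99 and 32.17 RPKM in delta/delta and 32.66 and 26.78 RPKM in delta/+ (log2 change -0.29, SE 0.13, limma adjusted p = 0.149). Both were called lower after median-ratio scaling, with log2 changes of -0.58 and -0.49 (limma adjusted p = 0.0333 and 0.048). Of the exon bases of Mrpl53, 88.0% are shared with neighbouring transcripts, and strand use in counting was not given in the sources used here, so its value is uncertain. Mrps36, the dehydrogenase subunit, had 117.3 and 100.7 RPKM in delta/delta and 81.7 and 76.73 RPKM in delta/+ (log2 change -0.15, SE 0.13, limma adjusted p = 0.397); 3 processed pseudogenes of it are annotated, which could share its reads.

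The authors' deposited table also holds Kal's Z-test, which compares shares of all RPKM between 2 libraries and so says nothing of the spread between replicates. In the authors' deposited table, corrected p was under 0.05 with a higher value in 4OHT for 4 genes of the set in delta/delta, namely Mrpl12, Mrps18b, Mrps5 and Mrps6 (2.72% of all rows were so called), and for 1 gene, Mrps18b, in delta/+ (0.951% of all rows). None was called lower there, where the authors' deposited table has 1.26% and 0.964% of all rows. The lowest corrected p in that deposited table was 2.52e-12, for Mrpl12 in delta/delta.

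Taken genotype by genotype, each 4OHT response is a ratio of 2 libraries, and with 1 library per cell of the design the difference between the responses has 0 residual degrees of freedom and could not be tested. In both genotypes 65 of the 76 genes were higher in 4OHT, 5 were lower in both and 6 went in opposite directions; among all genes tested 54.5% were higher in both and 26.8% lower in both. The median log2 response of the set was 0.43 in delta/delta and 0.30 in delta/+, against 0.17 and 0.15 for all genes. The response was larger in delta/delta for 52 of the 76 genes (54.4% of all genes). Responses above 1 on the log2 scale were seen for 7 genes in delta/delta, namely Mrps6, Mrps27, Mrps35, Mrpl12, Mrps2, Mrpl16 and Mrps18b, and for Mrps2 alone in delta/+. Under median-ratio scaling the counts were 48 higher in both, 13 lower in both and 15 opposite, the medians were 0.20 and 0.13, and 41 genes had the larger response in delta/delta (49.2% of all genes). At the same total without globin genes, 44 genes had the larger response in delta/delta (50.9% of all genes). The median difference between the responses was 0.08 on the authors' scale (all genes 0.03), 0.04 under median-ratio scaling (all genes -0.01) and 0.06 without globin genes (all genes 0.01). Both rescaled counts lay nearer the background than the count on the authors' scale, and the difference was not tested.

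**Figure D3:**
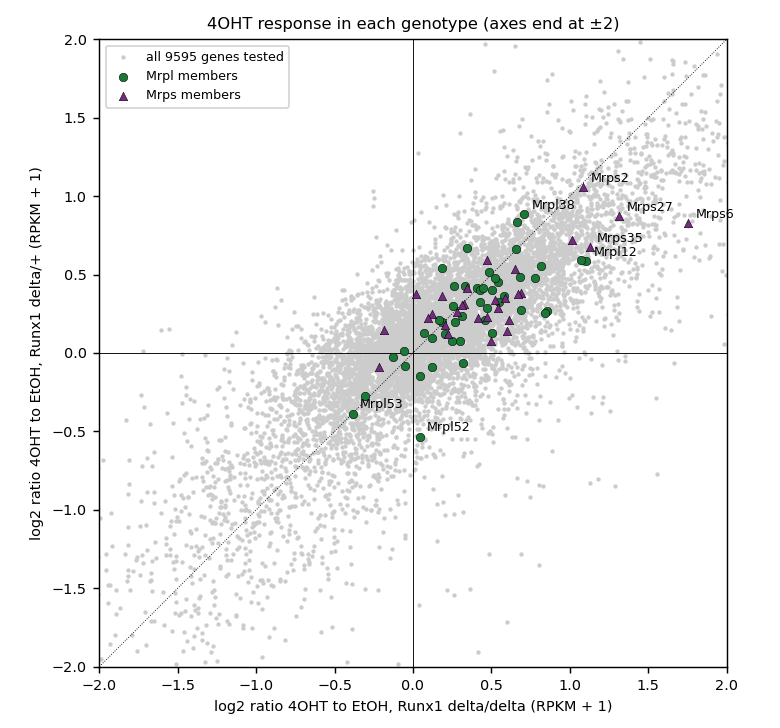
Log2 ratio of 4OHT to EtOH in delta/delta (horizontal) and delta/+ (vertical) for all 9595 genes tested in grey and the 76 genes of the set in colour, with the line of equal response dotted. Most coloured points lie in the upper right, 65 of 76, and Mrps6 lies far to the right of the line while Mrpl52 lies below the horizontal 0 line.

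The 4 genes with opposite directions and the largest difference were Mrpl52, Mrpl13, Mrps18c and Mrpl32. Mrpl52, a mitochondria-specific large-subunit protein, had 76.77 and 79.17 RPKM without and with 4OHT in delta/delta and 60.41 and 41.39 RPKM in delta/+. The delta/+ library in 4OHT stood alone as the lowest, and the response was 0.04 in delta/delta and -0.54 in delta/+. Mrpl13, a homologue of bacterial L13, had 49.22 and 61.76 RPKM in delta/delta and 60.2 and 57.53 RPKM in delta/+. Mrps18c, another of the S18 relatives, had 38.41 and 33.63 RPKM in delta/delta and 34.1 and 37.91 RPKM in delta/+, a crossing of small steps. Mrpl32, a protein matured by a mitochondrial protease before it joins the ribosome, had 81.69 and 88.88 RPKM in delta/delta and 73.97 and 69.55 RPKM in delta/+.

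The second comparison asked which genes of the set differed between delta/delta and delta/+ cells, with treatment as a term. Of the 76 genes, 9 were higher in delta/delta (11.8%) and 0 were lower, by limma with adjusted p under 0.05, while 4.68% of all genes tested were higher and 6.91% lower. By an unadjusted p under 0.05, 20 genes of the set passed (32.5% of all genes tested, in either direction). The median difference was 0.17 on the log2 scale against -0.03 for all genes, and 50 of 76 were above 0 (46.7% of all genes). Both delta/delta libraries exceeded both delta/+ libraries for 21 genes (17.0% of all genes), and both lay below for 3 genes, Mrpl1, Mrpl18 and Mrpl45 (21.4% of all genes); those 3 are named after their values were seen. With median-ratio scaling 8 genes were higher and 0 lower, where 4.39% and 4.42% of all genes were called. Genotype is the same as replicate number here, so genotype, mouse and any difference of preparation between the replicates cannot be told apart. Of the erythroid markers 6 were higher in delta/delta, and neutrophil and monocyte markers summed to 41.8 and 45.8 RPKM there and to 16.7 and 18.5 RPKM in delta/+, led by S100a8 and S100a9. Of the 4 progenitor and blast markers tested, Flt3 and Ptprc were lower in delta/delta, by log2 differences of -1.49 and -1.13. For Flt3 the value does not separate a normal copy from FLT3-ITD. The part of the erythroid, neutrophil and monocyte, and progenitor and blast markers in the differences of the set was not tested. Without the treatment term 0 genes of the set were called in either direction, where 0.0% of all genes were called. In that fit 3 had an unadjusted p under 0.05 by limma (9.17% of all genes). The calls also ended with no filter on low values, where 0.0% of all genes were called in either direction, and without any 1 of the 4 libraries. Without 4OHT of delta/delta the median fell to -0.05 (all genes -0.16).

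Mrpl30, a homologue of bacterial L30, differed most. It had 172.4 and 177.7 RPKM without and with 4OHT in delta/delta and 88.05 and 79.36 RPKM in delta/+. The treatments barely differed, both delta/delta libraries were far above both delta/+ libraries, and Mrpl30 was higher in delta/delta by 1.06 on the log2 scale (SE 0.13, limma adjusted p = 0.0204). Mrpl12 was higher by 0.95 (SE 0.17, limma adjusted p = 0.0334), without overlap between genotypes. Mrps28 had 45.25 and 73.65 RPKM in delta/delta and 28.56 and 37.61 RPKM in delta/+, and was higher by 0.80 (SE 0.15, limma adjusted p = 0.0353). Mrps34, a mitochondria-specific small-subunit protein, had 40.28 and 46.0 RPKM in delta/delta and 22.03 and 28.62 RPKM in delta/+ (log2 difference 0.75, SE 0.14, limma adjusted p = 0.0351). Neighbouring genes share 77.8% of the exon bases of Mrps34, so its reads could include theirs. Of these, Nme3 had 27.35 and 18.44 RPKM in delta/delta and 12.29 and 12.44 RPKM in delta/+, and Mapk8ip3, on the other strand, went the opposite way with 8.625 and 6.381 RPKM and 16.13 and 18.54 RPKM.

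Mrps23 had 84.69 and 118.0 RPKM without and with 4OHT in delta/delta and 49.58 and 75.44 RPKM in delta/+. It was higher in delta/delta by 0.70 (SE 0.13, limma adjusted p = 0.0356). Mrps26 followed with 53.5 and 84.48 RPKM in delta/delta and 34.6 and 50.54 RPKM in delta/+ (log2 difference 0.67, SE 0.13, limma adjusted p = 0.0388). In both genes each delta/delta library was above each delta/+ library. Mrpl41, Mrpl49 and Mrpl46 were higher by 0.64, 0.61 and 0.60 (limma adjusted p = 0.0497, 0.0462 and 0.0495). Mrpl49 had 50.37 and 48.38 RPKM in delta/delta and 31.82 and 32.12 RPKM in delta/+, and Mrpl46 had 52.35 and 62.84 RPKM and 32.17 and 43.53 RPKM; for Mrpl41 the genotypes overlapped by a small margin. Mrpl12, Mrpl41, Mrps23, Mrps26 and Mrps28 were called in both comparisons.

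Lower values in delta/delta did not pass the test on the authors' scale. Mrpl1, a homologue of bacterial L1, had 2.926 and 4.708 RPKM without and with 4OHT in delta/delta and 4.916 and 7.089 RPKM in delta/+ (log2 difference -0.55, SE 0.15, limma adjusted p = 0.0713). Mrpl42 had 83.52 and 120.5 RPKM in delta/delta and 119.9 and 167.6 RPKM in delta/+ (log2 difference -0.49, SE 0.12, limma adjusted p = 0.061). Both were the reverse of the 9 called genes, and in both the 4OHT library of delta/+ was the highest of the 4. At the same total without globin genes both were called lower in delta/delta (log2 difference -0.67 and -0.64, limma adjusted p = 0.0433 and 0.0342). On that scale 5 genes were higher and 2 lower, where 3.23% and 11.7% of all genes were called, and the median of the set was 0.04 against -0.16 for all genes. In EtOH alone the median difference of the set between genotypes was 0.09 (all genes -0.07), and in 4OHT it was 0.21 (all genes -0.004).

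**Figure D4:**
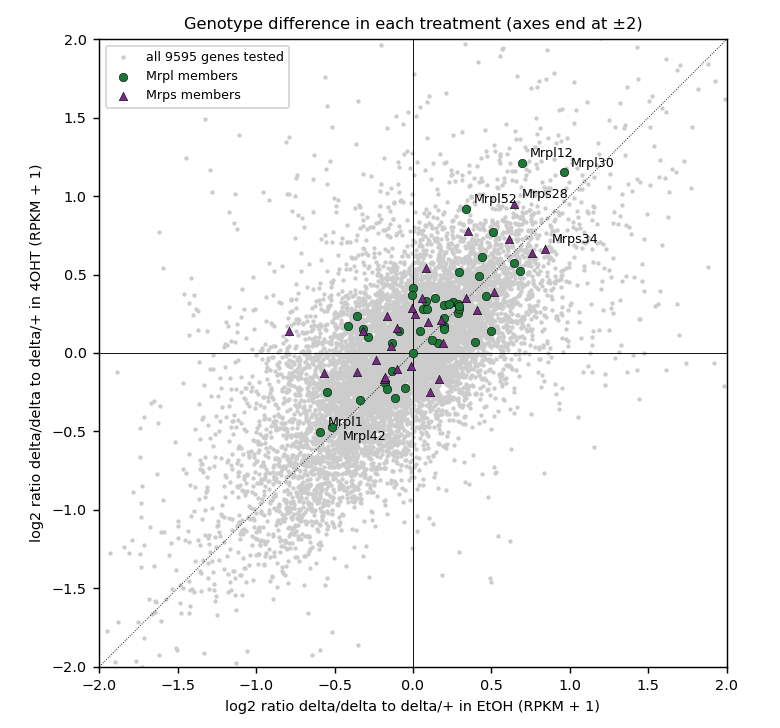
Log2 ratio of delta/delta to delta/+ in EtOH (horizontal) and in 4OHT (vertical) for all 9595 genes tested in grey and the 76 genes of the set in colour, with the line of equal difference dotted. Mrpl30 and Mrpl12 lie at the upper right and Mrpl1 and Mrpl42 at the lower left, and the median of the set is 0.09 in EtOH and 0.21 in 4OHT.

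Across the 76 genes, the 4OHT change was larger for longer genes (Pearson's r 0.325, Spearman's rho 0.412), where all genes tested gave -0.0358 and -0.0612; genes are not independent replicates, and this is a description. The set is made of short genes, with a median length of 1047 bases against 2703 for all genes tested, and 69 of the 76 were shorter than that second value. The 38 genes at or under the median length of the set had a median 4OHT change of 0.28 with 6 called higher. The 38 longer ones had a median of 0.46 with 14 called higher, where 22.2% of all genes tested were so called. Level differed too, with a median of 51.9 RPKM for the shorter 38 and 25.4 RPKM for the longer 38. The 4OHT change fell with mean level (r -0.234 in the set, -0.0845 over all genes). Length and level were not separated. Of the 9 genes below 0, 7 were at or under the median length. Mrpl52 with 412 bases, Mrpl14 with 595 and Mrpl53 with 620 were among the shortest, and Mrps6 with 780 bases was an exception in the other direction. The genotype difference rose with mean level (r 0.487 in the set, 0.235 over all genes) and with GC content (r 0.373 and 0.367), and it fell with length (r -0.255 and -0.174). After removal of the trend with GC content and length, 11 genes were higher and 2 lower in 4OHT, the latter again Mrpl53 and Mrpl14, where 15.4% and 13.5% of all genes were called. For genotype only Mrpl30 and Mrpl12 were then higher and 0 were lower, where 2.83% and 2.29% of all genes were called, so that share of the set was near the background.

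Other genes of mitochondrial gene expression were counted in the same fit for 4OHT, where 22.2% of all genes rose and 10.2% fell, and again under median-ratio scaling, where 12.7% rose and 13.8% fell. Of 7 proteins of the ribosome that carry other names, 0 were called in either direction, with a median change of 0.15. Under median-ratio scaling 1 of them, Dap3, was lower (log2 change -0.69, limma adjusted p = 0.0284). On the authors' scale Dap3, a GTP-binding protein of the small subunit, was lower in both genotypes without passing the test, with 12.37 and 9.366 RPKM in delta/delta and 14.92 and 9.239 RPKM in delta/+ (log2 change -0.50, SE 0.15, limma adjusted p = 0.0519). Of 24 genes of ribosome assembly and mitochondrial rRNA, 6 rose and 0 fell (median 0.39), or 4 and 0 under median-ratio scaling. Fastkd2, an RNA-binding assembly factor, rose by 0.86, Rpusd4, a pseudouridine synthase, by 0.85 and Eral1, a GTPase that chaperones the small-subunit rRNA, by 0.82 (limma adjusted p = 0.0119, 0.0156 and 0.0175).

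Of 14 translation factors, 7 rose and 0 fell, with a median of 0.45, or 5 and 0 with a median of 0.26 under median-ratio scaling. Tufm, the elongation factor that brings charged tRNA to the mitochondrial ribosome, had 35.4 and 80.17 RPKM without and with 4OHT in delta/delta and 41.0 and 83.95 RPKM in delta/+. It rose by 1.09 (SE 0.13, limma adjusted p = 0.00631), nearly alike in both genotypes. Its exchange factor Tsfm rose by 0.79 and the translocation factor Gfm1 by 0.78 (limma adjusted p = 0.0126 and 0.0138). Of 20 genes of the mitochondrial tRNA synthetase list, 7 rose and 0 fell (median 0.45), or 3 and 0 (median 0.27) under median-ratio scaling. The smallest adjusted p values were those of Tars2, Aars2 and Yars2, which charge tRNA with threonine, alanine and tyrosine and rose by 0.74, 0.78 and 0.79 (limma adjusted p = 0.0149, 0.016 and 0.0184).

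Of 10 genes of mitochondrial transcription and DNA, 4 rose and 1 fell, or 2 and 1 under median-ratio scaling. Top1mt, the mitochondrial topoisomerase, had 2.716 and 14.53 RPKM in delta/delta and 3.914 and 13.0 RPKM in delta/+, and rose by 1.79 (SE 0.18, limma adjusted p = 0.0046). Polg, the mitochondrial DNA polymerase, fell from 14.22 to 6.854 RPKM in delta/delta and from 13.92 to 4.389 RPKM in delta/+ (log2 change -1.21, SE 0.18, limma adjusted p = 0.00847). Peo1, the mitochondrial DNA helicase, rose by 0.95 (limma adjusted p = 0.00874); it shares exon bases with Mrpl43, which had a change of 0.23 and was not called. Of 9 measured regulators of such genes, 3 rose and 0 fell under either scaling: the nuclear receptor Esrra by 1.01, and the coactivators Pprc1 by 0.90 and Ppargc1b by 1.19 (limma adjusted p = 0.00715, 0.00941 and 0.0113). Nrf1, Gabpa, Gabpb1 and Gabpb2 went the other way without a call, with log2 changes of -0.30, -0.08, -0.16 and -0.23. Yy1 had a change of 0.40 and was not called. Myc, a regulator of ribosome production, had 103.7 and 196.2 RPKM in delta/delta and 83.67 and 103.4 RPKM in delta/+ and did not pass (log2 change 0.61, SE 0.18, limma adjusted p = 0.0537). The regulators without a call are named after their values were seen.

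Beside these, the cytosolic ribosomal protein genes, taken by name, gave 2 higher of 82 and 0 lower (22.2% and 10.2% of all genes tested), with a median of 0.06 that lay below that of all genes. The 2 higher genes were Rps12 and Rpl7l1, and whether Rpl7l1, which has a name of the like type, is part of the ribosome was not checked. Under median-ratio scaling 1 cytosolic gene was higher and 1 lower (12.7% and 13.8% of all genes). The nuclear genes of oxidative phosphorylation, which the mitochondrial ribosome serves, gave 6 higher and 2 lower of 81 (22.2% and 10.2% of all genes tested), the latter Cox7a2 and Ndufb4, with a median of 0.13. Under median-ratio scaling 1 of them was higher and 2 were lower (12.7% and 13.8% of all genes). The median of the set, 0.37, was thus nearer those of ribosome assembly, translation factors and tRNA synthetases than those of these 2 larger groups. For the 7 ribosome proteins with other names, the median of 0.15 (-0.05 under median-ratio scaling) was near that of oxidative phosphorylation and of all genes. These 7 were uneven: Ptcd3, Aurkaip1 and Ict1 changed by 0.36, 0.37 and 0.38, close to the median of the set. Gadd45gip1, Mrp63 and Chchd1 changed by 0.15, 0.07 and 0.07, and Dap3 alone was below 0. The differences between groups were not tested. The genes named for the cytosolic ribosomal proteins and for oxidative phosphorylation were chosen after their values were seen.

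**Figure D5:**
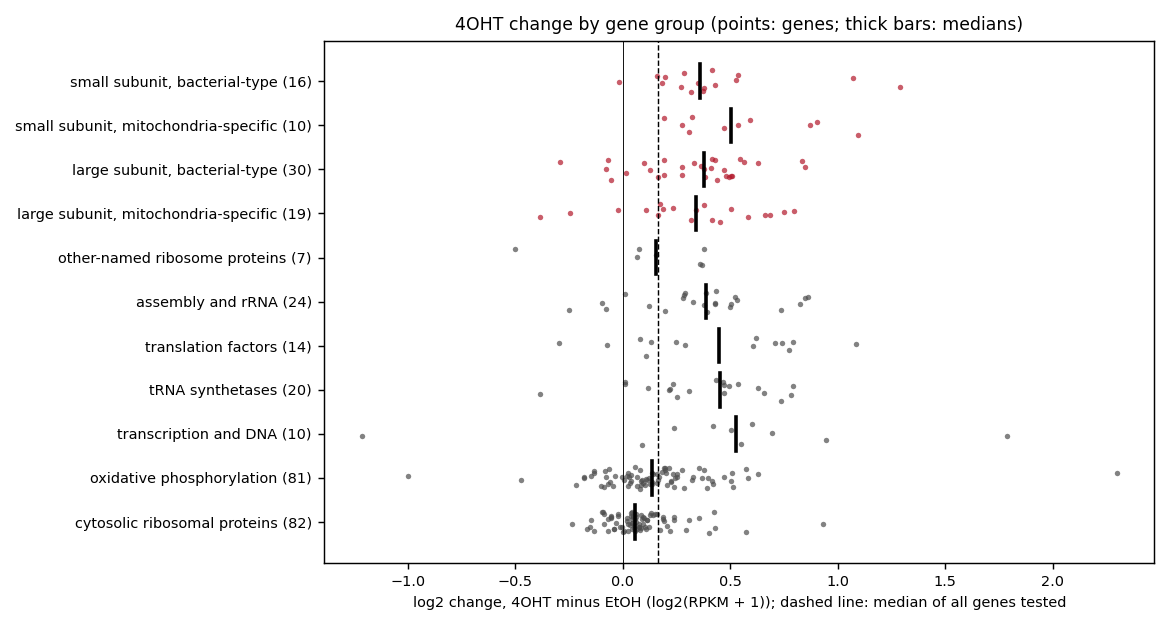
Log2 change of 4OHT against EtOH (horizontal) for each gene of 11 groups, with 1 point per gene, thick bars at the group medians, the number of genes measured in brackets and the dashed line at the median of all genes. The 4 groups of the 75 ribosomal members, in red, have medians from 0.34 to 0.50, ribosome proteins with other names have a median of 0.15, and the cytosolic ribosomal proteins have a median of 0.06.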

How the data were processed

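Total RNA of 4 libraries was sequenced, from TruSeq or NEBNext kits per the labels' protocols; the kit of each library, aligner, counting rule and strand use were not given in the sources used here, and the submitters' processing notes name mouse build mm 9. Per the file headers, the authors deposited 1 RPKM value per gene and library, and for each replicate number a fold of proportions (a signed score) with the raw and the corrected p-value of Kal's Z-test.

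The set of genes, the gene lists and the marker lists were chosen with earlier results of these data known. Whole reads and depth were recovered from the steps of the RPKM values: all 76 genes came out whole within 0.02 reads, and 106 of 470 single-transcript genes shared the totals. Counting intervals are exact (Clopper-Pearson) and cover counting error only. The test was limma 3.58.1 (R 4.3.3) on log2(RPKM + 1) for the 9595 genes whose mean reached 1 RPKM, with treatment and genotype as terms, a trended prior, two-sided, with Benjamini-Hochberg adjustment over all genes and a threshold of 0.05. Its residual degrees of freedom were 1, plus 4.37 from the prior. It was also run on simulated data with independent errors and the same spread for all genes. That run cannot vouch for the p-values here, since the spread of real genes differs from gene to gene. Samples with the same number share the genotype, and their deviations from the group means correlated at 0.664. Named genes were Runx1, up to 10 called genes of the set in each direction and comparison, the 6 highest and 4 lowest by mean, up to 4 with opposite responses, and up to 3 of each other list by smallest p; other called genes of the set are named beside their counts, after their values were seen. Exon overlaps used GENCODE M21 and promoters used RefSeq, both on GRCm38, by symbol; no gene coordinates were carried between builds. Python 3.11.15 was used for the rest.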

Additional observations from a re-analysis of the deposited data

Results flagged for a closer look

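In 6 genes the 4OHT response went up in one genotype and down in the other. With 1 library per genotype and treatment these differences were not tested. The response in delta/delta minus that in delta/+, on the log2 scale, was 0.579 for Mrpl52, 0.386 for Mrpl13, 0.208 for Mrpl32 and 0.191 for Mrpl30, which were higher in 4OHT in delta/delta only. It was -0.336 for Mrps18c and -0.07 for Mrpl49, which were higher in 4OHT in delta/+ only.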

How the results depend on the processing

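With 20 genes higher and 0 lower in 4OHT as reported, the fit with no replicate block (no genotype term) gave 0 higher. Only 1.22% of all genes were higher in that fit. The samples with the same number share the genotype, so the block is the genotype term. Median-ratio scaling gave 9 higher, 2 lower and a median of 0.172, and removal of the GC and length trend gave 11 higher, 2 lower and a median of 0.197. Leaving out 1 library at a time drops the second factor and leaves a lone sample assumed to vary like the others. Medians of the set were then from 0.239 to 0.494, against 0.138 to 0.207 for all genes. Leaving out any of the 4 libraries ended the calls, in fits where few genes of the whole table were called. The change of Mrps36 then ranged from -0.412 to 0.105, above 0 without EtOH of delta/delta or without 4OHT of delta/+, and that of Mrpl52 from -0.705 to 0.214, above 0 without 4OHT of delta/+; the causes were not tested. For genotype, 9 were higher and 0 lower, with a median of 0.17, as reported. With no treatment term or with no filter on low values 0 were higher, and 0.0% of all genes were called. At the same total without globin genes 5 were higher and 2 lower (Mrpl1 and Mrpl42), with a median of 0.041. All genes then gave 3.23% higher, 11.7% lower and a median of -0.159. With the GC and length trend removed 2 were higher (2.83% of all genes). Leaving out 1 library gave medians of the genotype difference from -0.052 to 0.358, against -0.16 to 0.069 for all genes. With no filter, 14 genes were higher in 4OHT (8.6% of all genes). The pseudocount of 0.1 gave 19 higher for 4OHT and 6 for genotype (21.3% and 4.1% of all genes). A minimum of 5 RPKM gave 18 and 6 (20.1% and 4.26% of all genes).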
